A study of Mus musculus with 8 samples.

Results

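Transcripts of 9 complement genes were examined in tumours of B16F10 cells, a mouse melanoma line, grown subcutaneously in C57BL/6J mice. The genes were C1qa, C1qb, C1qc, C1ra, C1s1, C3, C4b, Cfb and Serping1. They were chosen by symbol, and all 9 were found among the 34745 Ensembl genes listed. Normal diet (ND) was given to the hosts of 4 tumours, numbered ND 1 to ND 4, and high cholesterol diet (HCD) to those of the other 4, numbered HCD 1 to HCD 4. Apart from diet, the labels give the groups no difference. The injected cells are a cultured line, and the mice in which they grew have their own immune and stromal cells. Since no label assigns each tumour to a mouse of its own, p-values reflect the spread between these samples alone, and that spread may be technical. The design sets tumour expression on one diet against the other.

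Complement is a cascade of plasma proteins that tags cells and debris for removal, recruits leukocytes and can pierce membranes. Its classical arm starts with C1, in which the recognition molecule C1q, built from the chains of C1qa, C1qb and C1qc, carries the proteases C1r and C1s (C1ra and C1s1 in the mouse). C1s cleaves C4 (C4b) and C2, which together cleave C3, factor B (Cfb) drives the alternative arm, and Serping1 encodes the C1 inhibitor that blocks C1r and C1s. Most plasma complement is made in the liver, whereas C1q is made largely by macrophages and dendritic cells, and fibroblasts, endothelial cells and tumour cells can make C1r, C1s, C3 and the C1 inhibitor.

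In mm10, C1qb (ENSMUSG00000036905, 136880129 to 136886187), C1qc (ENSMUSG00000036896, 136889804 to 136893065) and C1qa (ENSMUSG00000036887, 136895917 to 136898803) lie next to each other on chromosome 4, all on the minus strand. C1ra (ENSMUSG00000055172, 124512405 to 124523443, plus strand) and C1s1 (ENSMUSG00000038521, 124530345 to 124542359, minus strand) lie on chromosome 6. Chromosome 17 holds C4b (ENSMUSG00000073418, 34728380 to 34743882), Cfb (ENSMUSG00000090231, 34856374 to 34862518) and C3 (ENSMUSG00000024164, 57203970 to 57228136), and chromosome 2 holds Serping1 (ENSMUSG00000023224, 84765387 to 84775444), all 4 on the minus strand.

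Upstream sequence is shown for a C1q chain, a C1 protease and C3, whose RefSeq start sites (GRCm38.p6) lie within 13 bases of the GENCODE gene start. RefSeq windows were found for 5 of the 9 members (C1qb, C1qc, C1ra, C1s1 and C3). Each line gives the 250 bases before the start site, 5′ to 3′ on the gene's strand, and capitals mark matches to the motifs named below. The windows are chr4:136886201-136886450 for C1qb, chr6:124542360-124542609 for C1s1 and chr17:57228137-57228386 for C3, all on the minus strand.
C1qb: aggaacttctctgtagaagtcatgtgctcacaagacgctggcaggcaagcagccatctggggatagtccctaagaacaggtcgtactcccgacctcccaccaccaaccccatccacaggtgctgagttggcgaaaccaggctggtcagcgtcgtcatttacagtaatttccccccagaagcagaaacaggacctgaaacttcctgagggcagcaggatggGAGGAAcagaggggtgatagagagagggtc
C1s1: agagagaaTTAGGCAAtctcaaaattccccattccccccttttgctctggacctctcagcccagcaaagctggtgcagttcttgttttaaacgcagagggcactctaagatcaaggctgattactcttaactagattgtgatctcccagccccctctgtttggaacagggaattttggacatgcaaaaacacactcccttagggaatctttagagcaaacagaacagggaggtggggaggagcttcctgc
C3: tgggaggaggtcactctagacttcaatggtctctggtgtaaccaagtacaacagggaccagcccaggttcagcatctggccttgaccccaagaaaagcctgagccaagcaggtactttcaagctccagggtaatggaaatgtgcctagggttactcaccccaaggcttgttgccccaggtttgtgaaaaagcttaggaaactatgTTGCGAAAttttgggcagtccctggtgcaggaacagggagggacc

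The 3 motifs were searched on both strands in the 250 upstream bases of each of these 5 members and of all 32536 distinct RefSeq windows. GAGGAA, the core bound by the myeloid factor PU.1, was in 23.4% of all windows, and it matched once in C1qb (from -30 to -25 relative to the start site) and once in C1qc (-193 to -188). TTGCNNAA, a C/EBP motif, was in 9.57% of all windows, and it matched in C1s1 (-242 to -235) and in C3 (-45 to -38). The interferon-stimulated response element (2.98% of windows) matched in 0 of the 5, and C1ra held no match to any of the 3 motifs. For C1qc and C1ra the RefSeq start sites lay 151 and 216 bases inside the GENCODE gene. Their windows thus lay in part within that gene. The motifs were chosen after expression values were seen and can overlap one another, and a match or its lack describes these letters only.

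Total counts ran from 14599222 to 17722093 per library, and all 9 members passed the expression filter, which left 13186 genes. ND 2 held the lowest level of 8 of the 9 members. ND 2, ND 3 and ND 4 had counts on 18088 to 18224 genes, against 16285 to 16745 in ND 1 and the HCD libraries; the part of this difference in the members' values was not tested beyond the fits given below. Melanocyte markers, the check of the labelled cell type, were present in all libraries, with 8 of 8 tested and a summed level of 34274.7 to 35843.6 CPM (counts relative to library size, scaled by TMM, the trimmed mean of M-values) in ND and 32156.2 to 36691.2 CPM in HCD. Of 6 hepatocyte markers, 4 (Alb, Serpina1a, Fgb and Tat) were at 0 in all 8 libraries.

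Per gene length, the C1q chains were the most abundant of the 9. FPKM, the authors' count divided by gene length and by the library's counted reads, was 79.0 ± 29.7 for C1qa, 65.7 ± 23.6 for C1qb and 29.9 ± 10.3 for C1qc over all libraries (SD, n = 8 here and for the levels that follow). C1qa thus stood above 96.4% of the tested genes, and C1qc above 89.2%. The C1r gene C1ra followed at 20.1 ± 3.86 FPKM, then C4b at 10.3 ± 3.88 FPKM and Serping1 at 7.07 ± 2.47 FPKM. C3 was at 1.9 ± 0.991 FPKM, C1s1 at 1.34 ± 0.296 FPKM and Cfb at 0.871 ± 0.296 FPKM, so that Cfb stood above 18.9% of the tested genes. This rank of Cfb is as counted, and it is uncertain because Cfb shares exon with Gm20547, as given below.

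**Figure D1:**
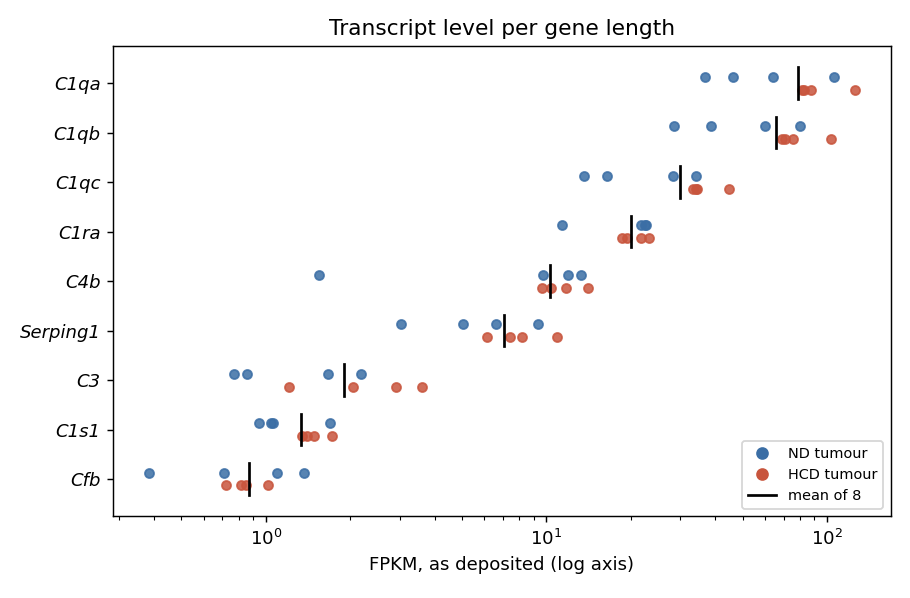
FPKM as deposited (log axis) of each complement gene in each of 8 tumours, ND in blue and HCD in red, with a black bar at the mean of 8. The C1q chains are at the top, between 13.6 and 126 FPKM, and Cfb is at the bottom, between 0.382 and 1.37 FPKM.

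The order of levels was mostly kept inside each library. C1qa exceeded C1qb, C1qb exceeded C1qc, C1ra exceeded C4b, and Serping1 exceeded C3 in 8 of 8 libraries each. C1qc exceeded C1ra in 7, and C4b exceeded Serping1 in 7, with ND 2 the exception for C4b (1.55 FPKM, against 3.03 FPKM for Serping1). C3 exceeded C1s1 in 5 libraries and C1s1 exceeded Cfb in 6, so these neighbours did not differ beyond their spread. The ranges of all 8 neighbouring pairs overlapped across libraries.

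The C1q chains kept close to a fixed ratio although their levels varied over 3-fold. The ratio of C1qa to C1qb in FPKM was 1.2 ± 0.0953 (range 1.07 to 1.33) and that of C1qc to C1qb was 0.456 ± 0.0245 (range 0.425 to 0.482, n = 8), coefficients of variation of 7.91% and 5.36%. The proteases that C1q carries were less even: the ratio of C1s1 to C1ra was 0.0685 ± 0.0174 (range 0.0435 to 0.0931), a coefficient of variation of 25.4%.

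None of the 9 members passed the test of diet by edgeR's quasi-likelihood test: 0 of 9 had a Benjamini-Hochberg adjusted p under 0.05, against 0.182% of all tested genes (0.0683% higher and 0.114% lower in HCD). The fitted level was higher in HCD in 8 of the 9 (51.1% of all tested genes were), with a median log2 fold change of 0.39 against 0.005 over all tested genes. The members include chains that vary together, so these are not 9 independent values. C1qc was the 1 member at an unadjusted p under 0.05, which 14.7% of tested genes reached (7.21% higher and 7.49% lower). DESeq2 (3.31% of tested genes called) and limma-voom (0.144%) also called 0 members, with C1qc and C3, and C1qb and C1qc, at an unadjusted p under 0.05. Groups overlapped for all 9 members, while 9.67% of tested genes had groups that did not overlap (4.94% with HCD higher and 4.73% with HCD lower).

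Among the C1q chains, C1qa was at 112, 39.1, 49.1 and 67.8 CPM in ND 1 to ND 4 and at 83.3, 83.1, 130 and 91.6 CPM in HCD 1 to HCD 4. C1qb was at 87.7, 31.5, 42.9 and 66.3 CPM in ND and at 74.9, 80.5, 111 and 75.6 CPM in HCD. C1qc was at 73.9, 29.9, 36.1 and 61.3 CPM in ND and at 70.7, 72.7, 95.2 and 71.9 CPM in HCD. For each chain, ND 2, ND 3 and ND 4 lay under every HCD library, and ND 1 lay within the HCD range. HCD 3 was the highest library and ND 2 the lowest for all 3 chains.

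The C1qa mean was 66.9 ± 32.1 CPM in ND and 97.0 ± 22.4 CPM in HCD (SD, n = 4 in each diet, also below), a log2 fold change of 0.54 (SE 0.289, edgeR adjusted p = 0.431). C1qb was at 57.1 ± 25 and 85.5 ± 17.3 CPM (log2 fold change 0.58, SE 0.276, edgeR adjusted p = 0.367). C1qc was at 50.3 ± 20.8 and 77.6 ± 11.8 CPM (log2 fold change 0.63, SE 0.254, edgeR adjusted p = 0.297). Spread was wider in ND, with coefficients of variation of 41.3% to 47.9% against 15.1% to 23.1% in HCD.

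**Figure D2:**
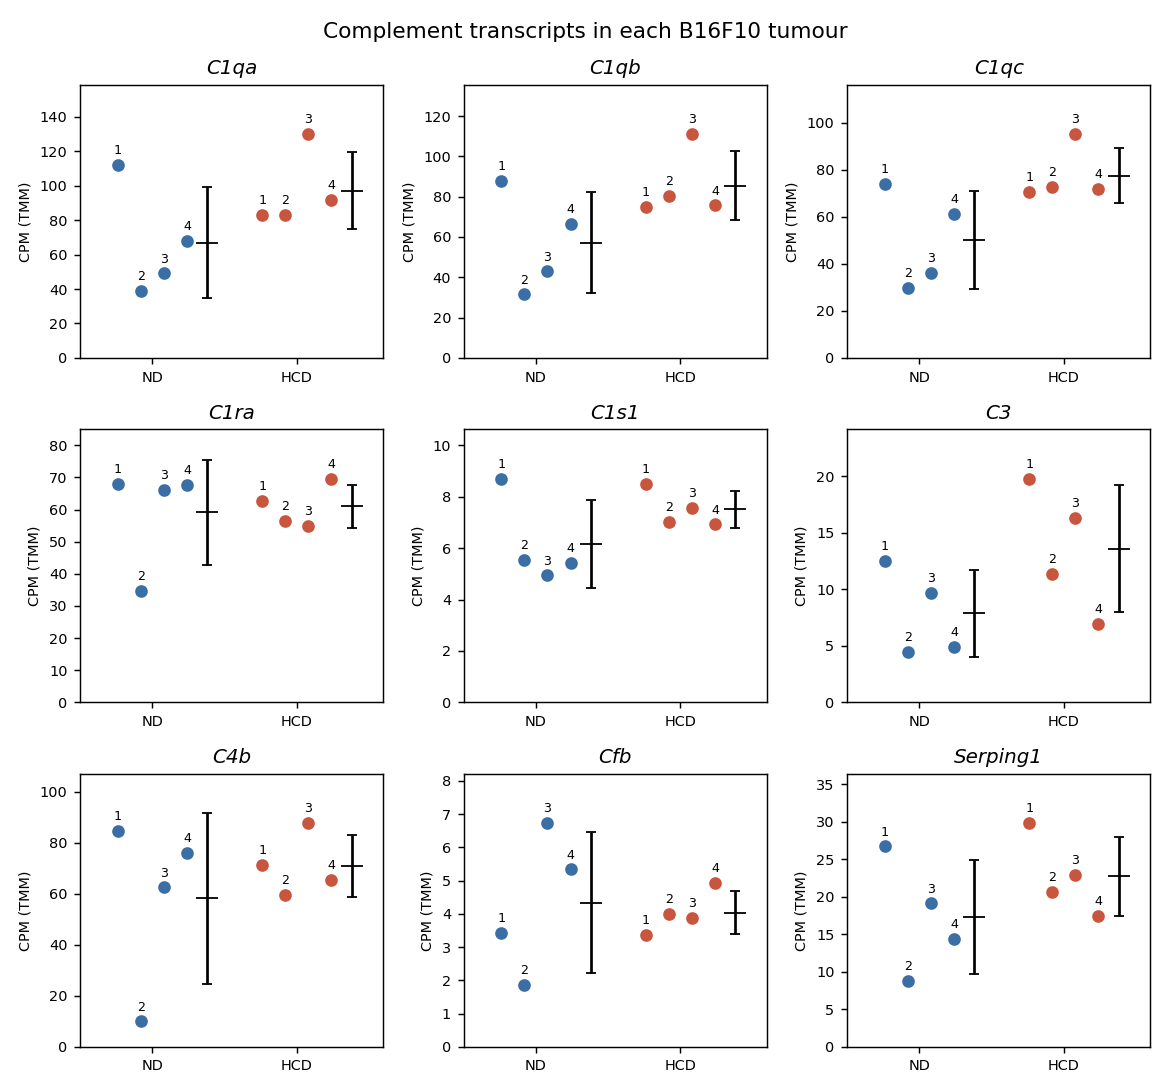
TMM-scaled CPM (linear axes from 0) of each complement gene in 4 ND tumours (blue) and 4 HCD tumours (red), numbered by replicate, with the group mean and SD in black. ND 2 is the lowest point in 8 of 9 panels, and the C1q values of ND 1, 73.9 to 112 CPM, lie among those of HCD.

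The C1q differences depended on which ND libraries entered. Without ND 1 the log2 fold changes were 0.90 for C1qa, 0.87 for C1qb and 0.87 for C1qc (edgeR adjusted p = 0.145, 0.19 and 0.18). Without ND 2 they were 0.35, 0.38 and 0.44 (edgeR adjusted p = 0.575, 0.469 and 0.387). Under a term shared by ND 2, ND 3 and ND 4, which rests the contrast on ND 1 against the 4 HCD libraries and assumes that this lone library varies like the others, they were -0.20, -0.036 and 0.072. Over the 9 members, 8 were higher in HCD without ND 1, 6 without ND 2 and 3 with the term, and 0 were called in any of these fits.

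**Figure D3:**
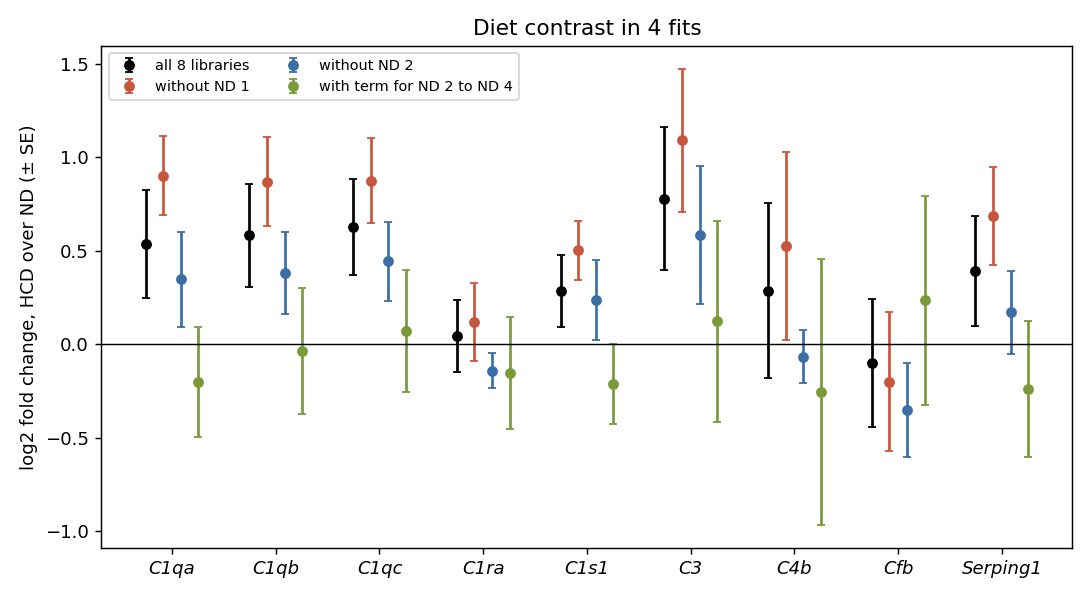
Log2 fold change of HCD over ND (± SE) for each complement gene, with all 8 libraries (black), without ND 1 (red), without ND 2 (blue) and under the ND 2 to ND 4 term (green). C1qa moves from 0.54 to 0.90, 0.35 and -0.20, and C4b from 0.29 to 0.52, -0.066 and -0.25.

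Averaged as a list, macrophage markers varied over the libraries alongside C1q, though single markers did not all do so. Endothelial markers, given below, shared part of this pattern. In bulk tumour, fewer cells of a type and less RNA per cell cannot be told apart. Of 12 macrophage markers, 11 were higher in HCD and 1 lower, with 0 called by edgeR and a median log2 fold change of 0.45. An unadjusted edgeR p under 0.05 with HCD higher was reached by 3 of the 12 and by 7.21% of all tested genes. The summed level of the 12 markers was 229 to 296 CPM in ND and 276 to 332 CPM in HCD. The marker Cd68, treated below, alone held 128 to 169 CPM in ND and 134 to 159 CPM in HCD, so these sums mostly follow that gene. Averaged over the markers, log2 CPM relative to the 8-library mean was lowest in ND 2 (-0.77), then ND 3 (-0.45) and ND 4 (-0.20), as for the C1q chains (-1.02, -0.67 and -0.054). It was highest in HCD 3 (0.46, against 0.72 for C1q).

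Csf1r, the receptor through which macrophages receive their main growth factor, was at 39.2, 11.3, 24.2 and 28.2 CPM in ND and at 35.6, 25.5, 47.9 and 30.5 CPM in HCD. It was lowest in ND 2 and highest in HCD 3, as the C1q chains were, but its ND 4 value lay above HCD 2, unlike theirs. Adgre1, the F4/80 antigen, was at 4.94 to 10.6 CPM in ND and 9.03 to 14.1 CPM in HCD. Its lowest library was ND 2, but its highest was HCD 4 (14.1 CPM, against 12.8 CPM in HCD 3). Cd68, a lysosomal protein, did not follow the order of C1q: it was at 169 CPM in ND 2, its highest library. Cd14, a co-receptor for lipopolysaccharide, was highest in ND 3 (9.82 CPM) and lowest in HCD 3 (1.44 CPM).

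Mrc1, the mannose receptor CD206, had the smallest p of the macrophage markers. It also had the 1 pair of groups among the 12 markers that did not overlap, while 9.67% of all tested genes had such groups. Mrc1 and Cd14 were singled out after their values were seen. Mrc1 was at 11.6, 8.68, 6.79 and 9.16 CPM in ND and at 20.9, 14.3, 24.7 and 21.3 CPM in HCD. Its log2 fold change was 1.17 (SE 0.196, edgeR adjusted p = 0.0506), with an adjusted p = 1.04e-05 by DESeq2 and 0.00764 with no filter, and 0.0514 to 0.378 under the other alternatives. No ratio of C1q to Mrc1 was tested.

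The log2 ratio of C1qa to Csf1r counts was 1.40 ± 0.33 in ND and 1.49 ± 0.205 in HCD, a difference of 0.094 (exact permutation p = 0.686, two-sided here and below, adjusted p = 0.686 over 3 ratios, n = 4 each). The smallest p that 4 against 4 allows is 0.0286. Csf1r shares 873 bp of exon with Hmgxb3 on the other strand, and the strandedness of the counting is not given. The log2 ratio of C1qa to C1s1 was 3.36 ± 0.402 in ND and 3.67 ± 0.34 in HCD, a difference of 0.309 (exact permutation p = 0.343, adjusted p = 0.686), which was 0.13 without ND 2 and 0.16 without HCD 3. C1q was thus not shown to differ between diets relative to this macrophage gene or to C1s1.

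Over the 8 libraries, the 2 genes whose log2 CPM was most like the mean of the 3 C1q chains, among 12435 genes with at least 1 CPM, were Mfsd12 and Vsir. Mfsd12, a transporter of lysosomes and melanosomes, had Pearson r = 0.989 and Spearman rho = 0.905. Vsir, which encodes the immune checkpoint protein VISTA, had 0.979 and 0.976. These were picked as the closest of all genes and share depth and composition with C1q in each library, so no p is given.

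Of the C1 proteases and their inhibitor, C1ra was at 67.9, 34.7, 66.2 and 67.6 CPM in ND and at 62.8, 56.5, 55.0 and 69.6 CPM in HCD. Apart from ND 2 its values lay within 1.27-fold of each other. Its means were 59.1 ± 16.3 and 61.0 ± 6.69 CPM, a log2 fold change of 0.046 (SE 0.191, edgeR adjusted p = 0.948), which turned to -0.14 without ND 2.

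C1s1 was at 8.7, 5.55, 4.94 and 5.41 CPM in ND and at 8.51, 7.03, 7.56 and 6.92 CPM in HCD. ND 1 was its highest library and the other ND libraries lay under all HCD libraries, as for C1q. The log2 fold change was 0.29 (SE 0.195, edgeR adjusted p = 0.553), and 0.50 without ND 1. Reads of C1ra and C1s1 could in part come from copies with 97.9% (C1rb) and 96% (C1s2) identical transcripts, to which at most 4 and 7 counts per library were assigned. C1s1 also shares 576 bp of exon with Gm16567 on the other strand, and the sources used here do not give the strandedness of the counting.

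Serping1 was at 26.7, 8.74, 19.1 and 14.4 CPM in ND and at 29.8, 20.6, 22.9 and 17.4 CPM in HCD. Its groups overlapped, with means of 17.3 ± 7.61 and 22.7 ± 5.25 CPM (log2 fold change 0.39, SE 0.293, edgeR adjusted p = 0.594). The value was 0.69 without ND 1, 0.17 without ND 2 and 0.23 without HCD 1.

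Fibroblast markers did not follow the order of C1ra, but in part that of C1s1 and Serping1. All 10 tested of 12 were higher in HCD, with 0 at an unadjusted p under 0.05 by edgeR, 0 called and a median log2 fold change of 0.68. Their summed level ran from 64.3 to 292 CPM in ND and from 82.9 to 302 CPM in HCD. Col1a1, a collagen gene, was at 82.2, 40.3, 16.7 and 13.5 CPM in ND and at 64.9, 87.8, 83.1 and 18.9 CPM in HCD. It was low in ND 3, ND 4 and HCD 4, where C1ra was at 66.2, 67.6 and 69.6 CPM. In the same libraries C1s1 was at 4.94, 5.41 and 6.92 CPM, its lowest values in ND and in HCD. Serping1 was at 19.1, 14.4 and 17.4 CPM there. HCD 4 was its lowest HCD library, but ND 2 was its lowest ND library. Pdgfra, a fibroblast receptor gene, had 5 to 36 counts per library. It shares 456 bp of exon with Gm42802 and 166 bp with Gm42803, both on the other strand. The log2 ratio of C1s1 to Pdgfra was 2.74 ± 0.827 in ND and 2.37 ± 0.899 in HCD, a difference of -0.38 (exact permutation p = 0.514, adjusted p = 0.686). That difference was -0.011 without ND 4, -0.67 without ND 2 and -0.82 without HCD 4.

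Endothelial markers were higher in HCD in 8 of 8, as were 51.1% of all tested genes, with 0 called by edgeR. An unadjusted edgeR p under 0.05 with HCD higher was reached by 4 of the 8 and by 7.21% of all tested genes. Groups did not overlap for 2, Pecam1 and Esam, while 9.67% of all tested genes had such groups. The summed levels of the 8 markers were 363 to 459 CPM in ND and 437 to 486 CPM in HCD. The marker Eng alone held 294 to 369 CPM in ND and 345 to 385 CPM in HCD. The mean deviation of the list was negative in ND 2, ND 3 and ND 4 (-0.287, -0.218 and -0.321 on the log2 scale) and highest in HCD 3 (0.26). The part of macrophage, fibroblast and endothelial content in the members' values was not tested. Genes most like C1s1 over the 8 libraries were Arhgef6 (r = 0.954, rho = 0.976), a regulator of small GTPases, Slc37a2 (r = 0.951, rho = 0.881), a sugar phosphate transporter, and the growth factor gene Igf1 (r = 0.95, rho = 0.833).

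C3, at which the arms of the cascade meet, did not pass the test of diet. It was at 12.5, 4.46, 9.69 and 4.93 CPM in ND and at 19.8, 11.4, 16.3 and 6.92 CPM in HCD. HCD 1 and HCD 3 were above every ND library, while HCD 2 and HCD 4 lay within the ND range. HCD 1 and HCD 3 were also the libraries highest in the adipocyte gene Adipoq (61 and 31 counts, 0 to 6 elsewhere), and the part of adipocyte content in the C3 values was not tested. The means were 7.89 ± 3.86 and 13.6 ± 5.62 CPM (log2 fold change 0.78, SE 0.382, edgeR adjusted p = 0.386), and the value was 0.54 without HCD 1, 1.09 without ND 1 and 0.12 under the ND 2 to ND 4 term.

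C4b was set apart by 1 library. It was at 84.7, 9.95, 62.5 and 75.9 CPM in ND and at 71.2, 59.5, 87.7 and 65.6 CPM in HCD. ND 2 thus held 0.141 times the median of the other 7 libraries, on log2 CPM with a prior count of 2, a fall that only 0.584% of tested genes exceeded. The log2 fold change of 0.29 (SE 0.467, edgeR adjusted p = 0.832) was 0.66 by limma-voom and turned to -0.066 (SE 0.143) without ND 2, where the ND mean was 74.4 ± 11.2 CPM (n = 3) against 71.0 ± 12.1 CPM in HCD. C4a, whose transcript is 96% identical to that of C4b, had at most 8 counts in a library.

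The other members were also low in ND 2, but less so. The level in ND 2 was 0.398 times the median of the other 7 for C3, 0.417 to 0.469 times for the C1q chains, 0.428 times for Serping1, 0.483 times for Cfb, 0.525 times for C1ra and 0.793 times for C1s1. Interferon-γ response genes, a list of 14 that holds Irf1, were lower there in all 14, at a median of 0.146 times the others, which lies next to the 0.141 of C4b. Medians in ND 2 were 0.529 times the others for macrophage markers, 0.767 times for fibroblast markers, 0.832 times for endothelial markers and 0.918 times for melanocyte markers, against 0.995 over all tested genes. Skeletal muscle markers ran the other way, with their highest mean deviation in ND 2 (2.77 on the log2 scale, 5 genes), where the muscle actin gene Acta1 was at 19.5 CPM; their part in the members' values was not tested. Interferon-γ is known to induce C4, factor B and the C1 inhibitor in many cells, and its part in the values of ND 2 was not tested.

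**Figure D4:**
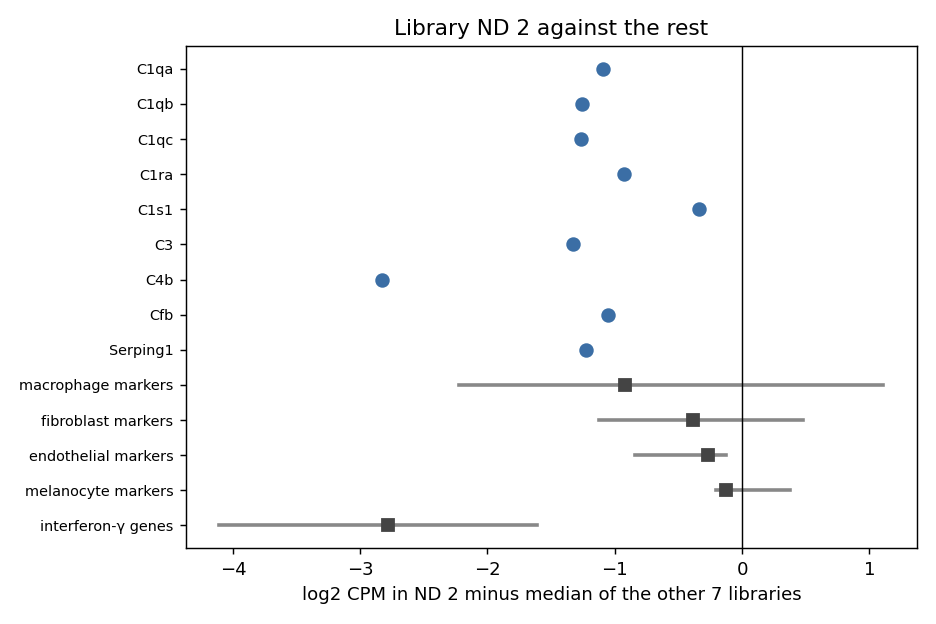
Log2 CPM in ND 2 minus the median of the other 7 libraries, for each complement gene (blue points) and as the median (square) and range (line) of 5 marker lists. C4b, at -2.83, lies beside the interferon-γ genes, at a median of -2.78, and the other complement genes lie between -1.33 and -0.34.

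In the 7 other libraries the interferon-γ list stood higher, with mean deviations of 0.025 to 0.75 on the log2 scale against -2.49 in ND 2. By diet, 8 of its 14 genes were higher and 6 lower in HCD, with 0 at an unadjusted p under 0.05 and 0 called by edgeR, and its summed level was 148 to 1543.9 CPM in ND and 911 to 1335 CPM in HCD.

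**Figure D5:**
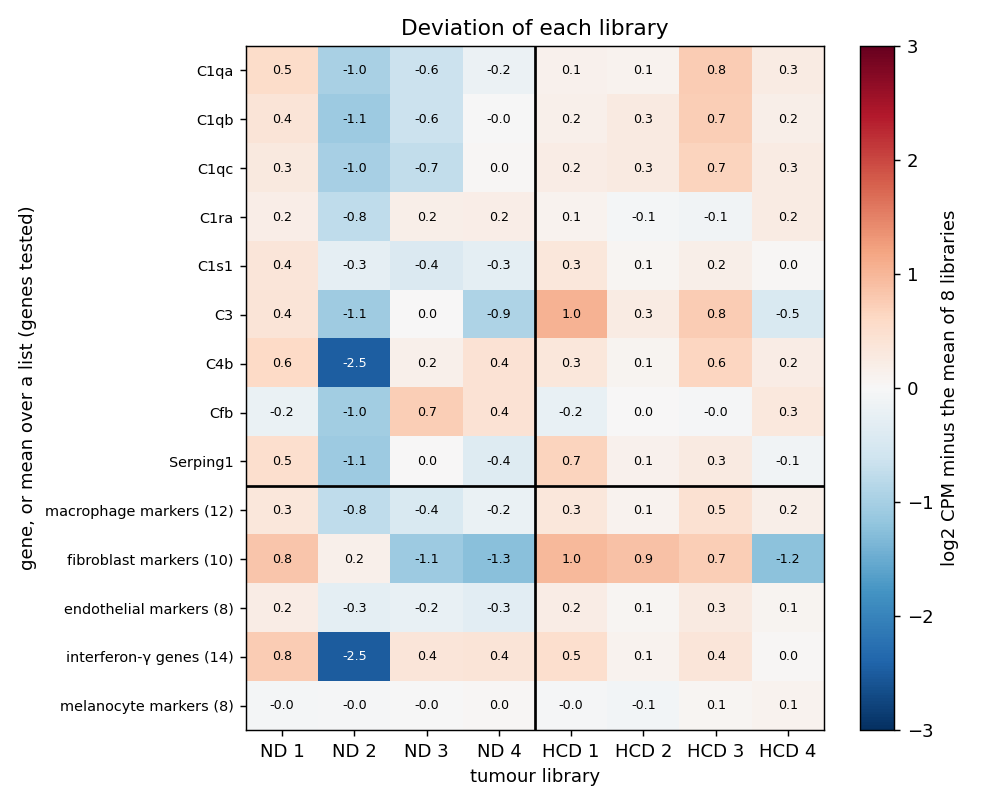
Log2 CPM minus the mean of 8 libraries, for each complement gene (upper rows) and as the mean over the tested genes of 5 lists (lower rows), in each of 8 libraries (columns). ND 2 is blue for all 9 genes and darkest for C4b (-2.48) and the interferon-γ list (-2.49), while the fibroblast list is lowest in ND 3, ND 4 and HCD 4.

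Cfb was the 1 member with a fitted level lower in HCD, and its direction was not settled. It was at 3.43, 1.87, 6.73 and 5.34 CPM in ND and at 3.36, 4.0, 3.87 and 4.94 CPM in HCD. ND held both its lowest and its highest library, and all HCD values lay between them. The log2 fold change was -0.10 (SE 0.34, edgeR adjusted p = 0.929), and 0.058 by limma-voom, 0.20 without ND 3 and -0.35 without ND 2. Cfb shares 2246 bp of exon on the same strand with Gm20547, a gene model that also overlaps C2 and had 335 to 785 counts against 31 to 109 for Cfb. The sources used here do not give how shared reads were counted, so the level of Cfb is uncertain.

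Beyond the 9 members, 44 other complement genes were listed, of which 17 passed the expression filter. Of these, 13 were higher and 4 lower in HCD, 0 were called by edgeR and the median log2 fold change was 0.24. An unadjusted edgeR p under 0.05 was reached by 2 of the 17 (Cfp and C5ar1) and by 14.7% of all tested genes. DESeq2, which called 3.31% of all tested genes, called 1 of the 17, C5ar1, and limma-voom called 0. The groups did not overlap for 2 of the 17, C5ar1 and C3ar1, a share near the 9.67% of all tested genes. A further 24 of the 44 had under 10 counts in every library, and Mbl1, C8b and Cpn1 were at 0 in all 8.

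C5ar1, the receptor for C5a on myeloid cells, was at 3.72, 1.51, 1.98 and 2.91 CPM in ND and at 5.04, 4.54, 5.08 and 4.71 CPM in HCD. All HCD values lay above all ND values. The log2 fold change was 0.93 (SE 0.265, edgeR adjusted p = 0.155), with an adjusted p = 0.0376 by DESeq2, and the log2 fold change was 0.38 under the ND 2 to ND 4 term. C3ar1, the receptor for C3a, was at 15.1, 6.03, 15.7 and 13.9 CPM in ND and at 16.9, 19.8, 16.4 and 18.2 CPM in HCD (log2 fold change 0.49, SE 0.247, edgeR adjusted p = 0.399), and the value was 0.25 without ND 2. Itgb2, a subunit shared by complement receptors 3 and 4, was at 16.9 ± 6.8 and 20.6 ± 3.28 CPM (edgeR adjusted p = 0.714).

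Of the starting proteins, C2, the partner of C4, was the most abundant of the 44 at 10.0 to 19.1 FPKM and had near-equal means, with 91.5 ± 23 and 91.8 ± 9.72 CPM (log2 fold change 0.0061, SE 0.174, edgeR adjusted p = 0.992). Like Cfb it shares exon with Gm20547 (1656 bp). C1rl, a protease related to C1r, was at 17.8 ± 1.97 and 20.9 ± 3.79 CPM (edgeR adjusted p = 0.507). Cfp, properdin, which stabilises the alternative arm's convertase, was at 8.58, 3.56, 6.42 and 5.48 CPM in ND and at 10.9, 8.72, 12.7 and 7.32 CPM in HCD (log2 fold change 0.72, SE 0.264, edgeR adjusted p = 0.253). Only ND 1 of the ND libraries reached into the HCD range for Cfp, as it did for C1q. Under the ND 2 to ND 4 term the Cfp value was 0.21.

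Cfd, factor D, known as adipsin for its making by adipocytes, was singled out after its values were seen. It had 302 counts in HCD 1 and 105 in HCD 3, against 0 to 11 in the other 6 libraries, and did not pass the filter. Adipoq, the adipocyte gene for adiponectin, had 61 and 31 counts in the same 2 libraries and 0 to 6 in the others. The 6 adipocyte markers summed to 7.04 to 10.7 CPM in ND and 8.91 to 25.4 CPM in HCD, and their part in the Cfd values was not tested.

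Genes of the terminal, membrane-piercing steps were scarce. C8g was the 1 of 7 that passed the filter, with means of 1.17 ± 0.103 and 1.64 ± 0.537 CPM (edgeR adjusted p = 0.487), and C6 had 0 to 16 counts. Among regulators on cell membranes, Cr1l (Crry), which blocks C3 convertases on mouse cells, was at 28.8 ± 5.77 and 30.0 ± 4.86 CPM (edgeR adjusted p = 0.9), and Cd59a, which blocks the final pore, at 6.97 ± 1.86 and 6.01 ± 2.42 CPM (edgeR adjusted p = 0.805). Of the 14 listed regulators 6 were tested, 3 higher and 3 lower in HCD, and 0 of them had an unadjusted p under 0.05 or a call by edgeR. The other marker lists were neutrophil, at summed levels of 0.844 to 5.19 CPM in ND and 1.7 to 3.39 CPM in HCD, and skeletal muscle, at 3.47 to 56.2 CPM and 3.09 to 6.06 CPM. Of the muscle genes, 5 of 5 tested were lower in HCD at an unadjusted edgeR p under 0.05, as were 7.49% of all tested genes, and 0 were called. The hepatocyte markers summed to at most 1.51 CPM in either group.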

How the data were processed

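RNA-seq counts of 8 tumours were compared by diet. RNA was purified with a Qiagen kit and sequenced paired-end from Illumina TruSeq libraries, per the labels' protocols. TopHat2 2.0.9, HTSeq, CASAVA 1.8, edgeR and the build mm10 appear in the submitters' processing notes, without roles; the sources used here do not give the annotation release or strandedness. Per the file headers, the authors deposited a count and an FPKM per Ensembl gene; the FPKM divides the count by gene length and library total, as the values show.

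Names, coordinates and exon overlaps came from GENCODE M21 (GRCm38; 34267 of 34745 genes matched; bedtools 2.31.1), upstream windows from RefSeq (GRCm38.p6) and identities of copies from blastn 2.17.0. Groups and replicate numbers came from the sample titles. Libraries of a group differed by 14.5 to 37.6 times what counting error gives (chi-square over its degrees of freedom), so each was counted as 1 sample; this does not show that they are separate tumours.

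The counts were tested with edgeR 4.0.16 (limma 3.58.1, R 4.3.3): TMM, expression filter (minimum count 10, minimum total 15), quasi-likelihood F-test of diet over 13186 genes, Benjamini-Hochberg adjustment, threshold 0.05. SE was taken as |log2 fold change| divided by √F. Deviations use log2 CPM with prior count 2, and ratios use counts plus 0.5 with exact permutation tests. On simulated counts for this comparison of 13186 genes, calls were made for 24 of the 67 genes given a 1.5-fold change, for 42 of the 67 with 2-fold and for 63 of the 66 with 4-fold, beside 13 false calls. Alternatives were DESeq2 1.42.0, limma-voom, 2 other scalings, no filter, a replicate block, a term for ND 2 to ND 4 and leaving out each library.

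The members and lists were chosen with earlier results of these data known. Genes named were the 9 members; other complement genes with an unadjusted p under 0.05 or among the 2 highest by FPKM of their list; the first markers of each cell type list; and the 3 genes most like C1q and C1s1, of which 1 is not reported here. Of the marker lists other than macrophage and fibroblast, the summed list values are given.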

Additional observations from a re-analysis of the deposited data

Results flagged for a closer look

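A library stood apart from the 3 others of its group (Dixon's test at 95%) in 12 of 64 groups of 4 checked. Chance alone flags about 1 in 20 of independent groups. These groups are not independent: some genes vary together, and others were picked as most like C1q or C1s1. The 12 thus cannot be set against that rate. Among the members, HCD 3 was high for C1qb (111 CPM, others 74.9 to 80.5) and for C1qc (95.2 CPM, others 70.7 to 72.7). ND 2 was low for C1ra (34.7 CPM, others 66.2 to 67.9), and ND 1 was high for C1s1 (8.7 CPM, others 4.94 to 5.55). The value of C4b in ND 2 did not reach the limit. Mfsd12 (18.7 CPM) and Vsir (14.4 CPM), picked for likeness to C1q, were high in HCD 3. Slc37a2 (19.8 CPM) and Igf1 (2.4 CPM), picked for likeness to C1s1, were high in ND 1, as was C6 (0.343 CPM, others 0). Flags of these picked genes thus in part repeat those of C1q and C1s1. Col1a2 (18.5 CPM) and Col3a1 (20.9 CPM) were low in HCD 4, and Cd68 was low in HCD 1 (134 CPM, others 157 to 159).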

How the results depend on the processing

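None of the 9 members had an adjusted p under 0.05 in any of the 16 fits (smallest 0.122, C1qc by DESeq2). The count of called genes was 24 with all libraries, 93 with no filter, 437 by DESeq2, 5 under the ND 2 to ND 4 term, 0 with the replicate block, and it ran from 0 to 12 when 1 library was left out (edgeR gave 1634 genes at an unadjusted p under 0.05 with the block, 1603 without ND 4 and 1516 without HCD 4). With the term, directions turned for C1qa (-0.20), C1qb (-0.036), C1ra (-0.15), C1s1 (-0.21), C4b (-0.25), Serping1 (-0.24), Cfb (0.24), C2 (-0.24), Cr1l (-0.15) and Itgb2 (-0.10). When 1 library was left out, log2 fold changes ran from -0.14 to 0.12 for C1ra, -0.066 to 0.52 for C4b, -0.35 to 0.20 for Cfb, -0.16 to 0.0996 for C2, -0.028 to 0.16 for Cr1l and -0.41 to 0.00597 for Cd59a, and the ratios from -0.03 to 0.23 for C1qa to Csf1r, 0.13 to 0.44 for C1qa to C1s1 and -0.82 to -0.011 for C1s1 to Pdgfra. Single libraries that turned a direction were ND 2 and HCD 4 for C1ra (-0.14 and -0.024), ND 2 for C4b (-0.066), ND 3 and ND 4 for Cfb (0.20 and 0.013), ND 2, HCD 2, HCD 3 and HCD 4 for C2 (-0.16, -0.011, -0.0084 and -0.037), ND 2, ND 4 and HCD 4 for Cr1l (-0.028, -0.0092 and -0.023), HCD 1 for Cd59a (0.00597) and ND 3 for the C1qa to Csf1r ratio (-0.03). Cfb also turned by limma-voom (0.058). C3 had the largest fitted value of the members with all libraries, but not without HCD 1 (0.54, C1qc 0.67), without ND 4 (0.61, C1qc 0.74) or under the term. The cause of these turns was not tested.

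Same-numbered ND and HCD samples had correlations over genes of -0.068 to 0.107, and differently numbered ones of -0.277 to 0.201. The labels state no pairing, and these weak correlations cannot exclude a shared source. With the replicate block C3 was at 0.81 and C1qc at 0.71, with adjusted p = 0.222 and 0.358, and Cfb turned to 0.0041; no member was called. The smallest p of the ratio tests is 0.0286 with 1 library left out and 0.125 with the block's sign flips. At 31 to 109 counts per library Cfb had the lowest mean count of the members. The part of the exon shared with Gm20547 in this low count was not tested.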
